A study of Mus musculus with 4 samples.

Results

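The comparison of Müller glia at postnatal day 11 with Müller glia at postnatal day 8 used 2 of the 4 pooled mouse retinal libraries of the series and all 566 mouse miRNA probes among the 626 probes of the panel. Both libraries came from Rlbp-CreER mice crossed to stopf/f-tdTomato mice, in which Cre placed under Rlbp and switched on by tamoxifen turns on the red fluorescent protein tdTomato. For the P11 Müller glia (P11 MG), tamoxifen was injected intraperitoneally at 75 mg/kg on P9 and P10, and labelled cells from 32 retinas were sorted by flow cytometry and pooled. For the P8 Müller glia (P8 MG), the same dose was given on P6 and P7, and 52 retinas were pooled. The first of these is titled P11/12, which leaves its age uncertain by a day. Age, the days of tamoxifen, the number of retinas and the assay lane differed together between the libraries and cannot be told apart. The remaining libraries of the series entered the scaling and are cited for their levels only. One held P2 retinal progenitors (P2 RPC) from 8 retinas of Sox2-CreER mice crossed to the same tdTomato line, given 75 mg/kg tamoxifen on P0 and P1, and the other adult Müller glia (adult MG) from 40 retinas of the Rlbp-CreER cross, given that dose on consecutive days past the age of 21 days. The series' design text calls the progenitors adult in one place, against P2 in the sample labels, which are followed here. Each age was 1 library, so no difference below could be set against replicate spread, and p-values are not given. Bracketed ranges are exact conditional binomial 95% intervals, which hold counting error alone and speak of these libraries rather than of the ages.

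Müller glia span the thickness of the retina as its main supporting cells, and they are the last cell type that retinal progenitors produce. In the mouse they are made around the end of the first postnatal week and then pass from a state close to that of progenitors to a mature supporting state. A miRNA is a short RNA that pairs with messenger RNAs mainly through its seed, bases 2 to 8 from the 5′ end, and lowers their output, so miRNAs that share a seed are taken as a family. Retinal miRNAs are often grouped by the cells they mark: miR-204 and miR-125b for glia, miR-124 for neurons, the cluster of miR-183 for photoreceptors, and miR-17 and its relatives for dividing progenitors.

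The mature sequences below are those of the miRNAs on which the comparison turns, from RefSeq with build GRCm38.p6, written 5′ to 3′ with the seed in capitals. They are shown because several of the largest differences lay inside a seed family, so that members alike in sequence can be set side by side. The arm of each hairpin was taken from the accession of its probe. A RefSeq sequence was matched for 12 of the 14 called miRNAs, all but miR-124 and miR-2141. The first set holds the 4 miRNAs that were at least 2-fold higher in P11 MG, with their seed relatives.
miR-29a: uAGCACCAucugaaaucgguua
miR-29b: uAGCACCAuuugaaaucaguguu
miR-29c: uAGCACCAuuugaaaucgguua
miR-100: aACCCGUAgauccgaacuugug
miR-99a: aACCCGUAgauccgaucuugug
miR-99b: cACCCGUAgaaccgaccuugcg
miR-204: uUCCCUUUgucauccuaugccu
miR-211: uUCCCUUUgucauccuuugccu
miR-365: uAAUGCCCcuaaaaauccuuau

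The second set holds the miRNAs that were at least 2-fold lower in P11 MG, with miR-106b as the remaining seed relative of miR-17 measured here.
miR-96: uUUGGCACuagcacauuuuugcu
miR-182: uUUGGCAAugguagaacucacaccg
miR-183: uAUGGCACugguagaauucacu
miR-17: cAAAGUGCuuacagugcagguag
miR-106a: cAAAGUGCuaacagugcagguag
miR-20a: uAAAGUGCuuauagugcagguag
miR-20b: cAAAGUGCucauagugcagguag
miR-93: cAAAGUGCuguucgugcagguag
miR-106b: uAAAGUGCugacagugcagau
miR-19a: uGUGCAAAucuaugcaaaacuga
miR-19b: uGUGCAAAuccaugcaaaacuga

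The third set holds miRNAs that differed little between the ages, together with relatives of the same seed that differed more. It ends with miR-15a and miR-15b, which share a seed with each other and were both 1.5-fold to 2-fold lower in P11 MG.
miR-9: uCUUUGGUuaucuagcuguauga
let-7d: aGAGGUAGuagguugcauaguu
let-7g: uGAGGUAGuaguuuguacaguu
let-7c: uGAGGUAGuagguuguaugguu
let-7i: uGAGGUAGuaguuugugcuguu
miR-125a-5p: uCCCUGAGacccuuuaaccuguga
miR-125b-5p: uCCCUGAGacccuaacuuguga
miR-15a: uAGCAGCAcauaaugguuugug
miR-15b: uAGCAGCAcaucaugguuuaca

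Some relatives differ by a single base, so their probes may catch some of each other's RNA and their separate counts are uncertain. Counted from 1 at the 5′ end, miR-99a and miR-100 differ by U16A, miR-29c and miR-29a by U10C, miR-19b and miR-19a by C11U, miR-204 and miR-211 by A17U, and let-7b and let-7c by G17A. One probe reads miR-106a and miR-17 together, which differ by U10A, and another reads miR-20a and miR-20b. In build GRCm38.p6 the mature miR-29a lies at chr6:31062673-31062694 on the minus strand, miR-100 at chr9:41531437-41531458 on the plus strand and miR-204 at chr19:22750610-22750631 on the plus strand, where its gene overlaps the protein-coding gene Trpm3. miR-183 lies at chr6:30169711-30169732 on the minus strand, miR-96 at chr6:30169506-30169528 on the minus strand and miR-182 at chr6:30165962-30165986 on the minus strand, and none of these 3 genes overlaps a protein-coding gene in the RefSeq gene table. miR-365 and miR-19b each have 2 genes with the same mature sequence, so their probes sum over both.

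The P11 MG lane held 583673 counts and the P8 MG lane 576117, of which 484305 and 470304 fell on mouse miRNA probes. A count stood above background when it exceeded the average of the lane's own 8 negative control probes by more than 2 SD. This threshold was 106 raw counts in P11 MG and 137 in P8 MG, and 149 probes in P11 MG and 134 in P8 MG passed it. Either lane was passed by 157 probes, both lanes by 126, P11 MG alone by 23 and P8 MG alone by 8, while 409 stayed at or below background in both. Levels are given as normalized counts, which are raw counts scaled on the panel's positive controls and then on the 100 most abundant miRNA probes. Every ratio is P11 MG over P8 MG, and another choice of scaling moves all log2 ratios together by -0.27 to 0.13. None of the 33 viral miRNA probes of the panel stood above background in either lane.

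The 2 libraries of young glia differed by 2-fold in few miRNAs, and most of those measured lay within 1.5-fold. At least 2-fold higher in P11 MG were 4 of the 157 probes above background, or 2.55%, and at least 2-fold lower were 10, or 6.37%. With a threshold of 1.5-fold these numbers were 18 higher, or 11.5%, and 17 lower, or 10.8%. The median log2 ratio over all 157 probes was 0.0046. Over the 126 probes above background in both lanes the middle part, between the lower and the upper quartile, ran from -0.29 to 0.32 on the log2 scale, and the 10th and 90th percentiles were -0.72 and 0.66. Within 1.5-fold lay 96 of these 126, or 76.2%, and within 1.2-fold 56, or 44.4%. Counting error alone was small beside these differences for many probes, since the interval of the ratio left out 1 for 85 of 157. Of these, 49 were higher in P11 MG and 36 lower, a split that holds for the scaling used. Scaled on total miRNA counts, the median over all 157 probes was -0.27. In RNA from pooled sorted cells, a change in the number of cells of a type and a change in the RNA per cell cannot be told apart.

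**Figure D1:**
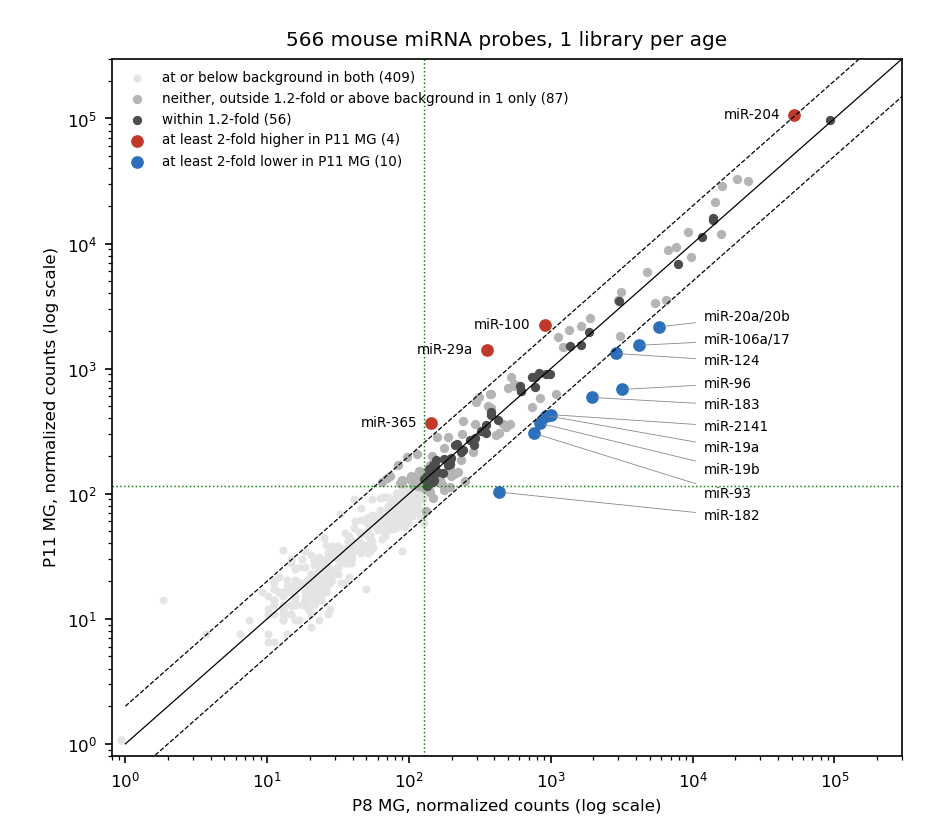
Normalized counts of the 566 mouse miRNA probes in P11 MG (vertical, log scale) against P8 MG (horizontal, log scale), 1 point per probe and 1 library per age. The solid line marks equal levels, the dashed lines a 2-fold difference and the dotted green lines the background of each lane; the 4 red points lie above the upper dashed line and the 10 blue points below the lower one.

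By mass, the difference between the ages was dominated by miR-204, the most abundant miRNA of P11 MG and abundant also in the retinal pigment epithelium. It had 107406 normalized counts in P11 MG, against 51643 in P8 MG, and held 20.5% of miRNA counts in P11 MG and 11.9% in P8 MG. Its gain of 55763 normalized counts was 45.4% of the summed gains of all probes above background. The 4 miRNAs called higher held 21.2% of miRNA counts in P11 MG and 12.2% in P8 MG, while the 10 called lower held 1.51% in P11 MG and 5.04% in P8 MG. The 10 most abundant probes held 71.5% of counts in P11 MG and 63.4% in P8 MG, and 9 of the 10 were shared. The exception was miR-99a, in place 9 in P11 MG and 12 in P8 MG, with the probe of miR-720, later assigned to a tRNA fragment, in place 10 in P8 MG and 11 in P11 MG.

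Among the higher miRNAs, the largest ratio belonged to miR-29a, which represses collagens and other matrix transcripts. It had 1405 normalized counts in P11 MG, against 356 in P8 MG, or 1297 and 385 raw counts, and stood in place 34 of all miRNA probes in P11 MG and 70 in P8 MG. The log2 ratio was 1.98, and no scaling tried put it below 1.71. miR-29b had 282 normalized counts in P11 MG, against 158 in P8 MG, a ratio of 1.78 (1.46 to 2.17). miR-29c had 728 in P11 MG, against 608 in P8 MG, a ratio of 1.198 (1.07 to 1.34). The 3 members share the seed AGCACCA, and their log2 ratios spanned 1.72, with miR-29a above the others. Their summed level was 2415 normalized counts in P11 MG, against 1122 in P8 MG, a ratio of 2.15. miR-29a and miR-29b have genes 275 bases apart on chromosome 6, and their log2 ratios differed by 1.15. miR-29b has a second gene on chromosome 1 with the same mature sequence, so its probe sums over both places.

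miR-100, whose seed family represses MTOR in human cells, had 2225 normalized counts in P11 MG, against 904 in P8 MG, or 2053 and 978 raw counts. Its log2 ratio was 1.30 and lay between 1.03 and 1.43 over the scalings. miR-99a, at 12436 normalized counts in P11 MG and 9220.4 in P8 MG, had a ratio of 1.35 (1.31 to 1.39). miR-99b, at 902 in P11 MG and 981 in P8 MG, had a ratio of 0.919 (0.838 to 1.01). The 3 share the seed ACCCGUA, and their summed level was 15562 normalized counts in P11 MG, against 11106 in P8 MG. The rarer miR-100 thus had the larger ratio and the abundant miR-99a, a base apart from it, the smaller one.

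miR-365 was the weakest of the higher miRNAs, with 365 normalized counts in P11 MG and 142 in P8 MG. Its 154 raw counts in P8 MG lay close to the lane's threshold of 137, against 337 raw counts in P11 MG. Subtracting the mean of the negative controls from both lanes gave it a log2 ratio of 2.01 in place of 1.36, a larger step than for miR-29a (2.22 in place of 1.98) or miR-204 (1.06 in place of 1.06). miR-204 itself stood just past the 2-fold line at a log2 ratio of 1.06, and dropped below it, down to 0.79, when lanes were scaled on total counts with or without the miR-204 probe, on positive controls or on ligation controls. Its near-copy miR-211, also known from the pigment epithelium, had 114 raw counts in P11 MG, above background, and 70 in P8 MG, below it. With the P8 MG count set to its threshold, the log2 ratio of miR-211 was -0.04, so no difference was shown for it. Rlbp is active in the pigment epithelium as well as in Müller glia, and the part of such cells in the miR-204 result was not tested.

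Among the lower miRNAs, the largest differences belonged to the miR-183 cluster (with its neighbours miR-96 and miR-182), which is known from photoreceptors and other sensory cells. miR-96 had 682 normalized counts in P11 MG, against 3186 in P8 MG, or 629 and 3445 raw counts. miR-183 had 588 in P11 MG, against 1952 in P8 MG, and miR-182 had 103, at background, in P11 MG, against 435 in P8 MG. Their log2 ratios were -2.22, -1.73 and, as a bound, -1.92. Summed, the cluster held 1373 normalized counts in P11 MG and 5573 in P8 MG, or 0.262% and 1.28% of miRNA counts. The median log2 ratio of its 3 members was -1.92, beside 0.0046 for all 157 probes, and ranged from -2.19 to -1.79 over the scalings. The genes lie within 3675 bases of each other on chromosome 6, with 116 bases between miR-183 and miR-96. The seeds of miR-96 and miR-182 differ by A8C alone (written from miR-182 to miR-96), and miR-183 has a seed of its own.

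miR-124, the classical neuronal miRNA, which represses Ptbp1, was lower in the same library. It had 1322 normalized counts in P11 MG, against 2883 in P8 MG, or 1220 and 3117 raw counts. Its log2 ratio of -1.12 reached only -0.99, just short of 2-fold, on either housekeeping scaling. Of 12 miRNAs listed as neuronal, 4 stood above background in either lane, 1 was called lower and none higher, and their median log2 ratio was -0.32, beside 6.37% called lower, 2.55% called higher and a median of 0.0046 over all 157 probes. miR-129-3p had 358 normalized counts in P11 MG and 459.6 in P8 MG, and miR-132, induced by neuronal activity, had 132 and 129 in the same order. miR-129-5p was above background in P8 MG only, with 98 raw counts in P11 MG and 150 in P8 MG. All 12 summed to 2448 normalized counts in P11 MG and 4191 in P8 MG, or 0.466% and 0.964% of miRNA counts. The levels of the photoreceptor cluster and of miR-124 thus differed in the same direction between the lanes, and the part of neurons carried along in the sort in the other lower miRNAs was not tested.

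The remaining lower miRNAs came mostly from the paralogous miR-17/92, miR-106a and miR-106b/25 clusters, which promote cell division and repress Cdkn1a. The probe of miR-20a and miR-20b had 2158 normalized counts in P11 MG and 5781 in P8 MG, and that of miR-106a and miR-17 had 1537 and 4168 in the same order. miR-19a had 422 in P11 MG and 924 in P8 MG, and miR-19b had 365 and 843 in the same order. These 4 were the measured probes among 8 from the clusters of miR-17/92 and miR-106a, and the rest were at background in both lanes. All 4 were called lower, beside 6.37% of all 157 probes. Their log2 ratios lay between -1.44 and -1.13, with a median of -1.31, and miR-19a reached -0.998 on the geometric mean of the housekeeping mRNAs. In the miR-106b/25 cluster, whose 3 genes overlap the replication gene Mcm7, miR-93 had 305 normalized counts in P11 MG, against 757 in P8 MG. miR-25 had 3522 in P11 MG, against 6478 in P8 MG, and was the most abundant of the 3 in both lanes. miR-106b had 358 in P11 MG, against 519 in P8 MG. The log2 ratios were -1.31, -0.88 and -0.54, so that only miR-93 of this cluster was called lower. miR-25 passed 2-fold when lanes were scaled on total counts with or without the miR-204 probe, on positive controls or on ligation controls. miR-93 and miR-106b have genes 126 bases apart and share a seed, and their log2 ratios differed by 0.776.

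Grouped by seed instead of by cluster, the 4 probes with AAAGUGC (miR-17 with miR-106a, miR-20a with miR-20b, miR-93 and miR-106b) summed to 4356 normalized counts in P11 MG and 11225 in P8 MG. Of the 4, 3 were called lower, beside 6.37% of all 157 probes. The 2 probes with GUGCAAA, miR-19a and miR-19b, summed to 787 in P11 MG and 1767 in P8 MG. Of 14 seed groups with 2 or more probes, covering 45 probes, the summed level was at least 2-fold lower in P11 MG for these 2 and at least 2-fold higher for 2 others. Of the 157 probes above background, 69 had an arm assigned, and only the 65 of these with a matched RefSeq sequence were grouped. Relatives without a sequence, such as miR-30b and miR-30d, are left out, as are relatives that were not looked up, such as miR-195. The higher groups were AGCACCA, that of miR-29, and UCCCUUU, that of miR-204, where miR-211 added little to 107529.8 normalized counts in P11 MG and 51708 in P8 MG. The other 10 groups had summed log2 ratios between -0.48 and 0.49.

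The last of the lower miRNAs was miR-2141, with 429 normalized counts in P11 MG and 1006 in P8 MG, or 396 and 1088 raw counts. Unlike the others it was scarce in the progenitors, at 194 normalized counts in P2 RPC. The members nearest the 2-fold line on the lower side were miR-124, miR-19a and miR-19b just past it, and miR-804, miR-25 and miR-340-5p just short of it, with log2 ratios of -0.99, -0.88 and -0.80. miR-804 had only 116 raw counts in P11 MG, close to that lane's threshold, and 270 in P8 MG. On the higher side miR-204, miR-100 and miR-365 stood just past the line, and miR-1927, miR-1960 and miR-29b just short of it, with log2 ratios of 0.93, 0.86 and 0.83. miR-1927 had 594 normalized counts in P11 MG and 313 in P8 MG, and miR-1960 had 536 and 295 in the same order.

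**Figure D2:**
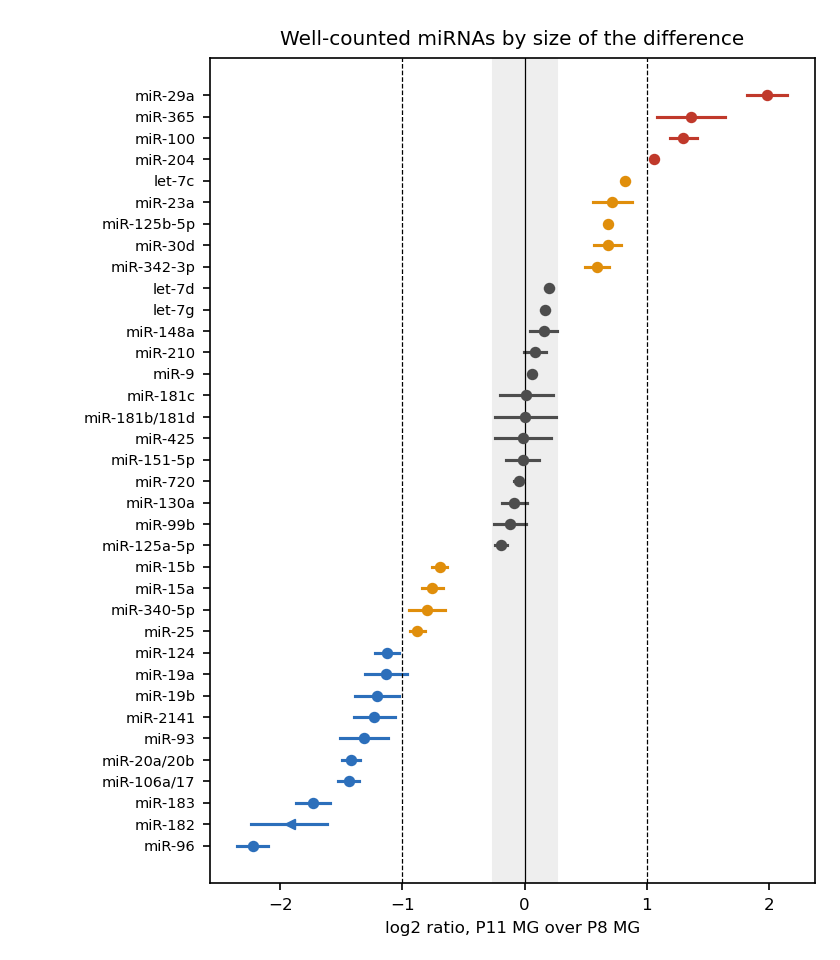
Log2 ratio, P11 MG over P8 MG, of the called miRNAs (red higher, blue lower), of well-counted miRNAs between 1.5-fold and 2-fold (orange) and of miRNAs whose whole counting interval lies within 1.2-fold (dark grey). Points are ratios from 1 library per age and bars their 95% counting intervals; the grey band spans 1.2-fold, the dashed lines 2-fold, and the arrow marks miR-182, a bound because it was at background in P11 MG. miR-29a lies farthest to the right and miR-96 farthest to the left.

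Between 1.5-fold and 2-fold, and counted at no less than 3 times background in both lanes, 5 miRNAs were higher in P11 MG. let-7c, a heterochronic miRNA that accumulates as cells mature, had 28676 normalized counts in P11 MG and 16219 in P8 MG. miR-125b-5p, the vertebrate relative of the worm timing gene lin-4, had 32730.3 in P11 MG and 20421 in P8 MG, a ratio of 1.603 (1.58 to 1.63). miR-30d had a ratio of 1.600, miR-23a of 1.64 and miR-342-3p, whose gene overlaps Evl, of 1.51. Apart from let-7c and miR-125b-5p, which were among the 5 most abundant miRNAs of both lanes, these were miRNAs of middling level. On the lower side stood miR-25, miR-340-5p, whose gene overlaps Rnf130, and miR-15a and miR-15b, which repress cyclins and Bcl2 in human cells. miR-340-5p had 629 normalized counts in P11 MG and 1092 in P8 MG. miR-15b had 3347 in P11 MG and 5419 in P8 MG, and miR-15a had 1818 and 3069 in the same order. Their seed relative miR-16, at 12006 normalized counts in P11 MG and 15933 in P8 MG, had a log2 ratio of -0.41, and miR-322 one of 0.47.

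More miRNAs were stable than were called, 56 of the 126 above background in both lanes, or 44.4%, against 14 called. They were not a majority, since many others were neither called nor within 1.2-fold. The 56 within 1.2-fold held 32.5% of miRNA counts in P11 MG and 37.6% in P8 MG. More than any other, miR-9 made up this share, and it alone held 21.4% of miRNA counts in P8 MG. For 13 of the 126 probes above background in both lanes, or 10.3%, the whole counting interval lay within 1.2-fold under the scaling used. The interval holds counting error alone, and another scaling moves all log2 ratios together by -0.27 to 0.13. A shift of that size takes some of the 13, miR-125a-5p and let-7d among them, outside 1.2-fold. First of the 13 by level was miR-9, a neural miRNA of progenitors and glia, with 96934 normalized counts in P11 MG and 93105 in P8 MG, a ratio of 1.04 (1.03 to 1.05). Next came let-7d, with 16095 in P11 MG and 14016 in P8 MG, and let-7g, with 15514 and 13828 in the same order. The miR-720 probe followed with 11285 in P11 MG and 11687 in P8 MG, and miR-125a-5p with 6879 and 7858. All 5 were among the 15 most abundant probes of each lane. miR-210, which is induced by hypoxia, had 1973 normalized counts in P11 MG and 1859 in P8 MG, a ratio of 1.06 (0.996 to 1.13). miR-130a had 1539.9 and 1633, and miR-148a 1512 and 1359 in the same order. Weaker members were miR-151-5p, miR-99b, miR-181c, miR-425 and the probe of miR-181b and miR-181d, whose log2 ratios lay between -0.12 for miR-99b and 0.01 for miR-181c. miR-151-5p, for example, had 914 normalized counts in P11 MG and 923 in P8 MG, and miR-425 had 319 and 321 in the same order.

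The other 43 probes within 1.2-fold had counting intervals that reached beyond it, so their ratios place them there less firmly. They included let-7f (3496 normalized counts in P11 MG and 3028 in P8 MG), miR-191 (865 and 778), miR-103 (708 and 768) and miR-21 (664 and 612). The share of probes within 1.2-fold went with abundance, and it was largest where counts were lowest. Among probes above background in both lanes with a mean of under 300 normalized counts it was 62.5% of 48, from 300 to 1000 it was 40.5% of 42, from 1000 to 5000 it was 21.1% of 19, and from 5000 up it was 29.4% of 17. The probes at or below background in both lanes had a median log2 ratio of -0.15, over 409 probes. The median log2 ratio in the abundance bins was -0.07, 0.06, 0.15 and 0.31, and with the negative control mean subtracted it was 0.03, 0.11, 0.17 and 0.31. With that mean subtracted from both lanes, 42 probes lay within 1.2-fold in place of 56, so the size of the stable class depends on the background left in. The abundance bins with 19 and 17 probes are thinly filled.

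**Figure D3:**
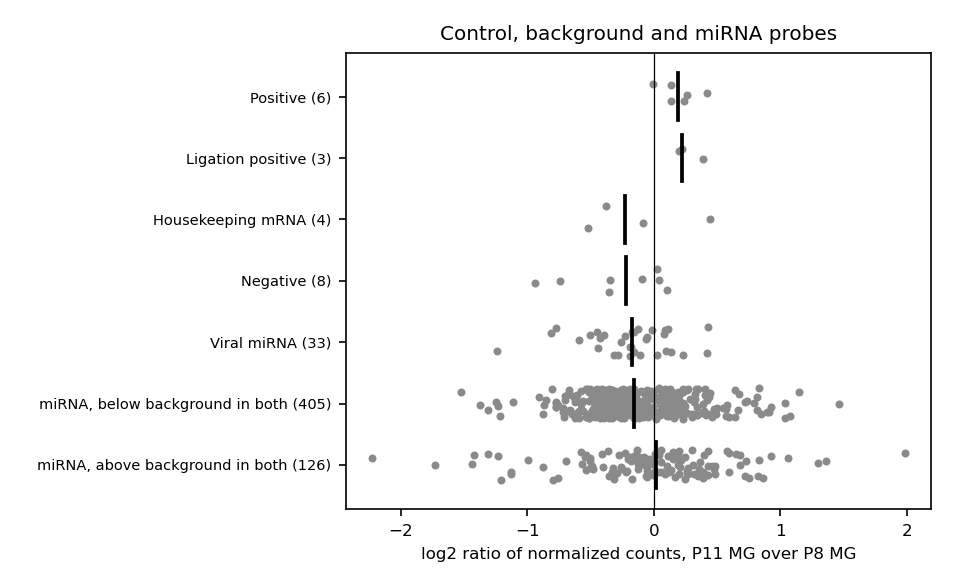
Log2 ratio of normalized counts, P11 MG over P8 MG, for each class of probe on the panel, 1 point per probe with random vertical offset and a bar at the median; 1 library per age. The positive and ligation controls sit to the right of 0, and the negative controls, the viral probes and the miRNAs below background to the left. The miRNAs above background in both lanes are centred at 0.02, a place near 0 that the scaling on abundant miRNA probes largely sets. Of the 409 miRNA probes below background 405 are drawn, those with more than 3 normalized counts in each lane.

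Families of related miRNAs differed in how alike the ratios of their members were. In the let-7 family, 9 probes with the seed GAGGUAG, 3 lay within 1.2-fold and none was called. Over all 157 probes 2.55% were called higher and 6.37% lower, shares at which a group this small can hold no call. The median log2 ratio of the family was 0.26, which ranged from -0.01 to 0.40 over the scalings and turned negative under 2 of 10. Within the family let-7c was highest at 0.82 and let-7i lowest at -0.32, with 7759 normalized counts in P11 MG and 9715 in P8 MG. let-7b had 21544 in P11 MG and 14432 in P8 MG, and the log2 ratios of let-7a, let-7e and miR-98 were 0.31, 0.26 and 0.36. The spread of 1.15 between let-7c and let-7i is the same under every scaling, because a scaling moves both together. Summed, the family held 106591 normalized counts in P11 MG and 82223 in P8 MG, or 20.3% and 18.9% of miRNA counts. let-7c and miR-99a have genes 656 bases apart on chromosome 16, and their log2 ratios differed by 0.391. let-7e and miR-125a-5p have genes 367 bases apart on chromosome 17, and differed by 0.456.

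The miR-30 family had log2 ratios between -0.0046 for miR-30e and 0.68 for miR-30d, with a median of 0.39 and none of 5 called. Beside this and the counts below stand 2.55% called higher and 6.37% called lower over all 157 probes. miR-30c, its most abundant member, had 4092 normalized counts in P11 MG and 3118 in P8 MG. The miR-15/16 family had a median of -0.41, and the family of miR-130 and miR-301a, of which miR-130b had 495 normalized counts in P11 MG and 732 in P8 MG, had a median of -0.54, with none called in either. The signs of these 3 medians were kept under all 10 scalings. The miR-181 family had a median of 0.01, but its abundant member miR-181a had 31702 normalized counts in P11 MG and 24599 in P8 MG, a ratio of 1.29 (1.27 to 1.31). miR-103 and miR-107 had log2 ratios of -0.12 and -0.16, and miR-26a and miR-26b of -0.10 and 0.25. In the family of miR-148 and miR-152 the ratios were 1.11 for miR-148a, 0.882 for miR-148b and 1.40 for miR-152, with a median log2 ratio of 0.15. The family medians of miR-181, miR-26 and miR-148 changed sign under some of the scalings, as did that of the 4 arms of miR-125, at 0.10. The miR-125 arms parted, with 233 normalized counts in P11 MG and 178 in P8 MG for miR-125b-3p, and 185 and 233 in the same order for miR-125a-3p.

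Of the miR-23/27/24 clusters, miR-23a had 860.4 normalized counts in P11 MG and 523 in P8 MG, miR-27a 855 and 741, and miR-24 128 and 149.8 in the same order. miR-23a and one gene of miR-24 lie 222 bases apart on chromosome 8, and their log2 ratios differed by 0.946, with miR-24 close to background in both lanes. miR-23b, from the second copy of this cluster, had 322 in P11 MG and 338 in P8 MG. miR-335-5p, whose gene overlaps the imprinted gene Mest, had 2552 in P11 MG and 1901 in P8 MG, a ratio of 1.34 (1.26 to 1.42). From the imprinted Dlk1-Dio3 cluster, 9 of 32 probes stood above background in either lane, none was called, and their median log2 ratio was 0.09, negative under 4 of 10 scalings. The most abundant of these was miR-382, with 244 normalized counts in P11 MG and 209.9 in P8 MG. Among 67 probes with numbers from miR-1894 to miR-1983, a list made after their values had been seen, 17 stood above background, none was called, and the median log2 ratio was 0.25, negative under 2 of 10 scalings. For both lists the shares over all 157 probes were 2.55% called higher and 6.37% called lower.

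**Figure D4:**
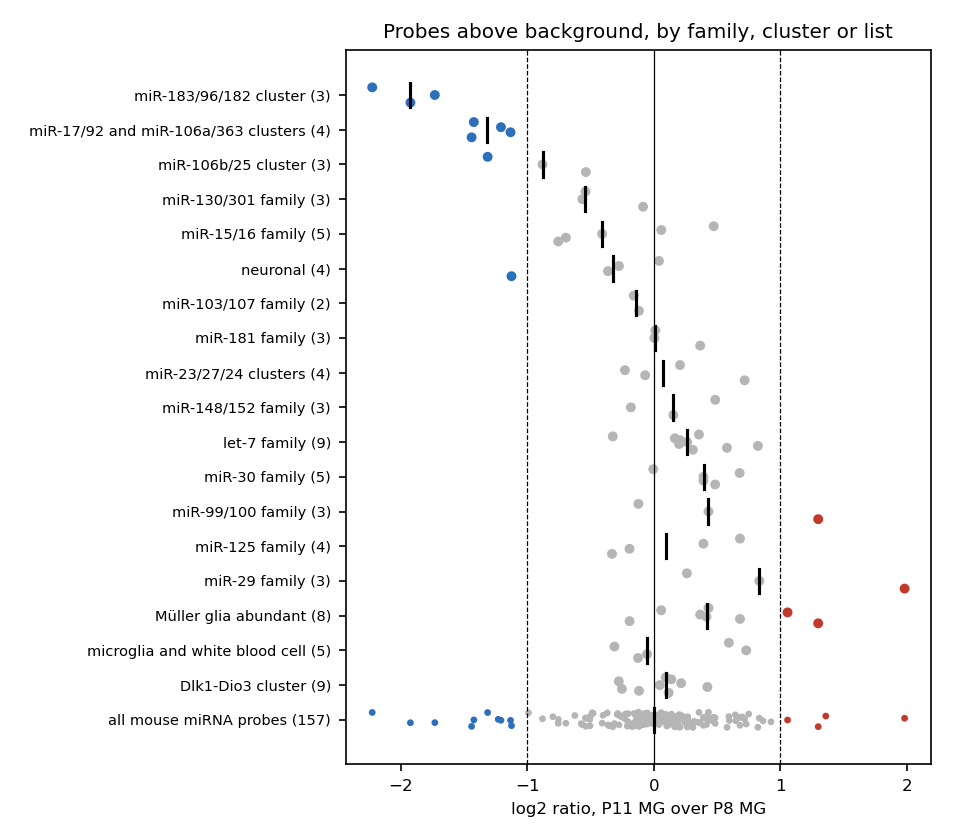
Log2 ratio, P11 MG over P8 MG, of the probes above background in either lane, 1 point per probe, by family, cluster or list, with the number of probes in brackets and a bar at the median. Red points were called higher and blue points lower; the dashed lines mark 2-fold, and the points of the miR-183 cluster, and those from the clusters of miR-17/92 and miR-106a, lie wholly to the left of -1.

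The labelled cell type was set against lists of marker miRNAs, since the panel holds no probe for the protein-coding genes that define Müller glia. All 8 miRNAs listed as abundant in Müller glia stood above background in both lanes, and together held 57.01% of miRNA counts in P11 MG and 49.3% in P8 MG. Of this, miR-204 held 20.5% in P11 MG and 11.9% in P8 MG, a larger rise than that of the whole list. The other members together thus gained no share. Of these, miR-100 and miR-204 were called higher and none lower, and the median log2 ratio was 0.42, from 0.15 to 0.56 over the scalings. Over all 157 probes 2.55% were called higher and the median was 0.0046, and over the 17 probes with 5000 normalized counts or more, the range of most of this list, the median was 0.31. miR-135a had 8878 normalized counts in P11 MG and 6655 in P8 MG, and miR-9, miR-99a, miR-181a and the miR-125 members are given above. Of 9 probes listed as enriched in Müller glia or astrocytes, 4 stood above background, with miR-29a called higher and a median of 0.72, beside the same 2.55% and 0.0046 over all probes. miR-146a, on that list and on the immune list, had 624 normalized counts in P11 MG and 376 in P8 MG. The rest of that list stood at or below background in both lanes and is not in its median. Of these, miR-199a-3p had 54 raw counts in P11 MG and 137 in P8 MG, miR-199a-5p 32 and 97, and miR-214 34 and 60. miR-143 had 24 and 25 in the same order, and miR-145 83 and 86, so none of these had more raw counts in P11 MG. Lists of this kind overlap between glia, vessels and immune cells, so a list's level does not name its source.

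Beside the photoreceptor cluster and miR-124, given above, lists of markers were set out for other cells that a retinal sort could carry along. Of 7 microglia and white blood cell miRNAs, 5 stood above background, none was called, and their median log2 ratio was -0.05. Over all 157 probes 2.55% were called higher and 6.37% lower. The most abundant was miR-342-3p, at 1870 raw counts in P11 MG and 1453 in P8 MG and a log2 ratio of 0.59, and miR-146a, given above, had the highest log2 ratio of the list at 0.73. miR-142-3p, which is made in blood-derived cells, had 222 normalized counts in P11 MG and 242 in P8 MG, and miR-150 had 129 and 160.0 in the same order. miR-223, the myeloid marker of the list, had 51 raw counts in P11 MG and 66 in P8 MG, below background in both. Of 6 endothelial miRNAs only miR-126-3p stood above background, with 390.1 in P11 MG and 427 in P8 MG. Of 7 mural and mesenchymal probes 2 did, miR-21 and miR-140, while miR-143 and miR-145, known from smooth muscle and pericytes, had 24 and 83 raw counts in P11 MG and 25 and 86 in P8 MG. No red blood cell miRNA, muscle or liver miRNA or miRNA of pluripotent cells stood above background in either lane, and the highest count among them was 98 in P11 MG and 111 in P8 MG. The summed share of miRNA counts was 0.636% in P11 MG and 0.569% in P8 MG for the immune list, 0.106% and 0.131% for the endothelial list, and 0.243% and 0.294% for the mural list. These sums take in the probes at or below background, and background was higher in P8 MG, so the shares do not show a lower level in P11 MG. The mural probes above background, miR-21 and miR-140, had log2 ratios of 0.12 and 0.30.

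Some probes passed background in 1 lane only, and for these the weaker side is known only as a bound. Of the 23 above background in P11 MG alone, the strongest were miR-338-3p, an oligodendrocyte miRNA, with 190 raw counts in P11 MG and 123 in P8 MG, and miR-450a-5p, with 183 and 104 in the same order. They were at least 1.62-fold and 1.56-fold higher. The next, miR-376a, miR-328, miR-362-3p and miR-1839-5p, had between 131 and 157 raw counts in P11 MG. For miR-362-3p the raw counts were 137 in P11 MG and 136 in P8 MG, so that it passed in 1 lane because the thresholds differed. Of the 8 above background in P8 MG alone, miR-182 is given above, and the next were miR-2140, with 104 raw counts in P11 MG and 209 in P8 MG, and miR-378, with 98 and 191. miR-764-5p, miR-669a and miR-129-5p followed with 160, 151 and 150 raw counts in P8 MG. None of the P11-only probes was called, and miR-182 was the only P8-only probe called.

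The levels of the called and stable miRNAs in all 4 libraries place the step between P8 and P11 on a longer time scale. The comparisons of neighbouring ages share a library each, so the levels are given without a comparison of their ratios, and the place of P2 RPC in the age order rests on its sample labels. In order of age, from P2 RPC over P8 MG and P11 MG to adult MG, miR-100 had 78.6, 904, 2225 and 5638 normalized counts. miR-365 had 75.9, 142, 365 and 1250.4 in the same order. miR-96 had 11579, 3186, 682 and 327, and miR-182 had 2049, 435, 103 and 45.9, the last 2 at background. miR-124 and miR-2141 did not run in age order. miR-124 had 6341, 2883, 1322 and 1391, and was close to level from P11 MG to adult MG. miR-2141 had 194, 1006, 429 and 326, and was highest in P8 MG. Some miRNAs that were stable between P8 and P11 were not level over the whole series. miR-210 had 871, 1859, 1973 and 798 normalized counts from P2 RPC to adult MG, and miR-130a had 3477, 1633, 1539.9 and 1955. let-7g had 14236, 13828, 15514 and 15597 in that order. let-7i had 11148, 9715, 7759 and 2466.

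**Figure D5:**
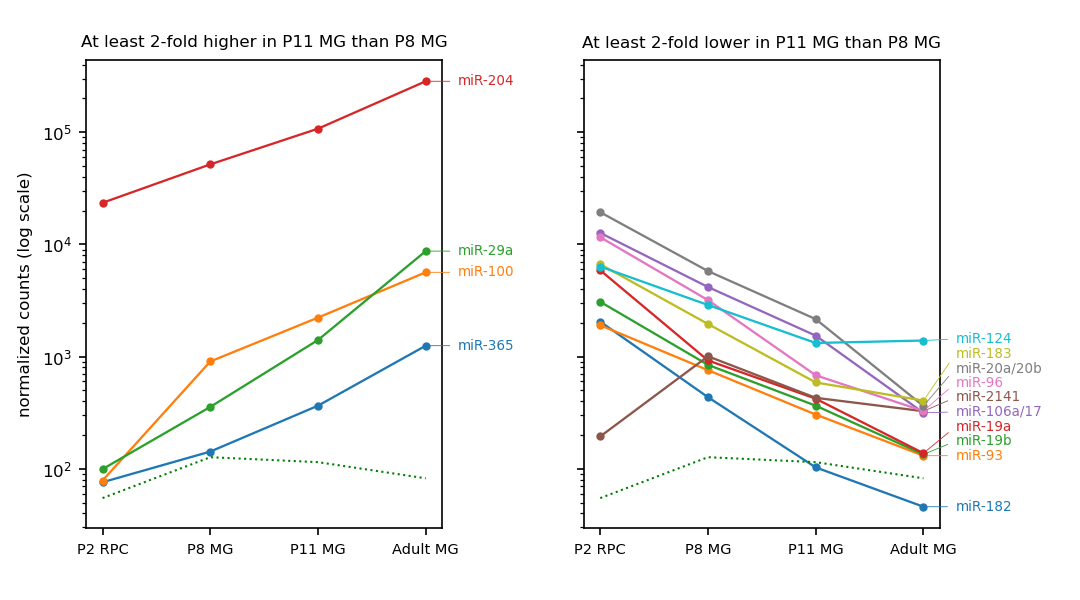
Normalized counts (log scale) in the 4 libraries in order of age for the 4 miRNAs called higher in P11 MG than in P8 MG (left) and the 10 called lower (right), 1 library per point. The dotted green line joins the lanes' background thresholds; all 4 lines on the left go up with age, while on the right miR-124 is level after P11 and miR-2141 peaks in P8 MG.

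The control probes bear on how far a ratio can be read between the lanes. After scaling, the 6 positive controls had a mean log2 ratio of 0.20, the 3 ligation positive controls one of 0.27 and the 4 housekeeping mRNAs one of -0.13, with SDs across probes of 0.14, 0.10 and 0.42. Among the housekeeping mRNAs, B2m had 629 raw counts in P11 MG and 543 in P8 MG, while Rpl19 had 1090 and 1829 in the same order, so these mRNAs did not give 1 common ratio. Scaled on total miRNA counts or on ligation controls, the split of calls was 3 higher and 15 lower, beside 4 and 10 here. Under all 10 scalings 3 of the 4 higher calls and 8 of the 10 lower calls were kept, the exceptions being miR-204, miR-124 and miR-19a. The negative controls averaged 50.4 raw counts in P11 MG and 70.5 in P8 MG, so a weak miRNA had to reach a higher count in P8 MG to be seen.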

How the data were processed

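Per the labels, RNA from sorted, pooled cells was extracted with a miRNeasy Micro Kit and counted on a NanoString nCounter miRNA panel, which ligates a sequence-specific tag to each mature miRNA and counts the tags with barcoded probes. The authors deposited raw counts for every probe, and the file headers record no step before them. A second deposited table holds processed values in a unit that is not stated and is called a score here. Each score matched the raw count minus a lane-specific floor (3 SD above the average negative control), multiplied by 0.989 in P11 MG and by 0.771 in P8 MG, with 1 as the smallest value. This held to within 1 unit for 98.9% of probes in P11 MG and 98.6% in P8 MG, and 450 and 457 of the 566 miRNA probes stood at 1. Neither the software nor its genome build is given in the sources used here.

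Raw counts are the basis of every result. Lanes were scaled on the geometric mean of the positive controls and then of the 100 most abundant miRNA probes over the 4 lanes, with factors of 1.08 for P11 MG and 0.925 for P8 MG. The background of a lane lay 2 SD above the mean of its 8 negative controls. A count at or below it was set to the threshold in a ratio, which is then a bound. A miRNA was called when the higher of its counts exceeded background, the ratio reached 2-fold and the 95% counting interval left out 1. With 1 library per age there was no test between groups. Lists gave counts and medians only.

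The miRNAs and lists were chosen with earlier results of these data known. The naming rule took all calls, well-counted miRNAs from 1.5 to 2-fold (at least 3 times background in both lanes), up to 15 with the whole interval within 1.2-fold, the 10 most abundant per lane, the miRNAs in the series title, up to 6 per direction above background in 1 lane only, 3 on each side of the 2-fold line per direction, and list members as examples. miR-191, miR-199a-3p, miR-199a-5p, miR-214 and miR-335-5p were added as examples after their values were seen. Alternatives were 10 other scalings (edgeR 4.0.16 gave the TMM factors, R 4.3.3), other background rules and fold thresholds, and the score table. Scaling on total counts without miR-204 was added after the data were seen. Mature sequences, gene positions and overlaps came from RefSeq tables of GRCm38.p6, which held 65 of the 69 miRNAs looked up among the 157 probes. Python 3.11.15, numpy 2.4.6, pandas 2.3.3, scipy 1.17.1 and matplotlib 3.10.9 were used, and the steps were tested on simulated data.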

Additional observations from a re-analysis of the deposited data

How the results depend on the processing

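No paired analysis was possible because each age was 1 library. The counts of 4 higher, 10 lower and 56 within 1.2-fold stayed within 1.5 times under all 10 other scalings, under a stricter background rule (3 SD) and under a looser one (the highest negative control), with 41 and 70 within 1.2-fold under these rules. Subtracting the negative control mean gave 9 higher, 12 lower and 42 within 1.2-fold. Among the 9 were miR-1927, miR-1960, miR-29b, miR-338-3p and miR-450a-5p. Without a background filter the counts were 11 higher, 17 lower and 258 within 1.2-fold. The authors' deposited score table gave 25 higher, 20 lower and 21 within 1.2-fold. A 1.5-fold threshold gave 18 higher and 17 lower, and a 3-fold threshold 1 and 3. Within 1.1-fold lay 30 probes and within 1.5-fold 96. miR-204 was lost on total counts with or without its own probe, on positive controls and on ligation controls, miR-124 on both housekeeping scalings and miR-19a on their geometric mean. miR-15a, miR-25, miR-340-5p, miR-804 and miR-2140 passed as lower on total counts and on ligation controls. miR-25 and miR-804 also did so on positive controls and on total counts without miR-204, and miR-804 on the median of ratios. Subtracting the negative control mean added miR-804 and miR-2140 to the lower calls. miR-1927 passed as higher on both housekeeping scalings and on the TMM factors. Probes near background, which make up most of those within 1.2-fold, are limited by depth and by the higher background of P8 MG.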
